A study of Mus musculus with 38 samples.

Results

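The 7 genes described here set or regulate the chloride gradient of neurons: the cation-chloride cotransporters Slc12a2 (NKCC1) and Slc12a5 (KCC2), the kinases Wnk1, Wnk2 and Wnk3, and the kinases Stk39 (SPAK) and Oxsr1 (OSR1). They were chosen by name from the 57010 gene IDs of a count table of mouse medial prefrontal cortex, and all 7 were found and passed the filter on low counts in every fit. The table lists genes by Ensembl ID alone. The symbols and chromosomes come from a GRCm38 annotation, whose IDs carry other version numbers: Slc12a2 (ENSMUSG00000024597.12, chromosome 18), Slc12a5 (ENSMUSG00000017740.18, chromosome 2), Wnk1 (ENSMUSG00000045962.17, chromosome 6), Wnk2 (ENSMUSG00000037989.16, chromosome 13), Wnk3 (ENSMUSG00000041245.14, chromosome X), Stk39 (ENSMUSG00000027030.16, chromosome 2) and Oxsr1 (ENSMUSG00000036737.13, chromosome 9). Bulk RNA sequencing gave 38 libraries, 1 a mouse. Control mice carried SSTCre, the Cre recombinase driven from the somatostatin gene, and mutant mice carried SSTCre:γ2f/f, which adds a conditional γ2 allele, so all animals, controls included, carried Cre. Mice of each sex were either left without stress (NS) or exposed to chronic variable stress (CVS) for 21 days, and the labels place the killing of the mice 24 hours after the last stressor. Among males there were 5 controls without and 6 with stress, and 3 mutants without and 4 with stress; each of the 4 female groups held 5 mice. The labels give no age. Somatostatin neurons are a minority of cortical cells, so these libraries measure whole tissue in which the Cre acts in few cells, and fewer cells of a type cannot be told apart from less RNA per cell.

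Opening of GABA-A receptors lets chloride flow down its gradient, and that gradient decides whether GABA inhibits a neuron. NKCC1 brings chloride into cells together with sodium and potassium, and KCC2 carries chloride out with potassium. In mature cortical neurons KCC2 dominates, whereas NKCC1 is also made by oligodendrocytes, astrocytes, endothelial cells and, at high levels, the choroid plexus. WNK kinases respond to low chloride and to osmotic change, and they activate SPAK and OSR1, which phosphorylate both cotransporters: NKCC1 is activated and KCC2 is inhibited. That control acts on protein, which RNA counts do not measure.

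Levels are given as CPM, a gene's counts relative to the total of its library scaled with TMM factors, and, to compare genes with each other, as CPM per kilobase of exon. Total counts ranged from 17.6 M to 27.5 M per library. Each member was counted well in every library: the lowest single count was 571 (Slc12a2) and the highest was 21233 (Slc12a5). Male and female levels are not compared, because the animal names of the sexes come from separate series, and sex and cohort cannot be told apart. The same limit holds for each difference of an effect between the sexes given below, which may be a difference between the series. Of the defining markers of cortical tissue, those of glutamatergic neurons were detected for 7 of 7 and those of oligodendrocytes for 12 of 12. In 3 male libraries Cdhr1, a mitral cell marker of the olfactory bulb, was high. Replicates 2 and 3 of the unstressed mutants had 25.8 and 27.5 CPM of it, and replicate 1 of the stressed controls had 16.6 CPM. The other bulb markers tested did not go with it. In unstressed males, mutant against control, the log2 fold change was 2.71 for Cdhr1, but -0.23 for Doc2g, -0.23 for Sp8 and -0.25 for Th. Whether these libraries hold bulb tissue was not tested. Male mutant CVS replicate 1 had a count of 0 for the predicted gene Gm12663, within the range of male controls (0 to 0.106 CPM), while the other 6 male mutants had 1.15 to 2.93 CPM. For Ccng1, which separated the genotypes within each sex in all other libraries, that library had 94.8 CPM, within the range of the other male mutants (86.3 to 102.6) and above male controls (73.3 to 82.5). For members at an unadjusted p under 0.05 in a comparison that uses these libraries, the value is also given without male mutant CVS replicate 1 and without the 3 libraries high in Cdhr1.

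Slc12a5 lies on chromosome 2, and RefSeq (GRCm38.p6) gives it 2 transcription starts 7142 bases apart, which open the KCC2a and KCC2b forms. Counts per gene add both forms together, so the values below do not tell them apart. The sequences upstream of both starts are shown because each form is transcribed from its own promoter, and each ends before the earliest annotated start inside the window. Both are on the plus strand, 5′ to 3′, and capitals mark a GC box (CCGCCC, which reads GGGCGG on the other strand) and an E-box (CACGTG).
Slc12a5 upstream start, chr2:164960596-164960801: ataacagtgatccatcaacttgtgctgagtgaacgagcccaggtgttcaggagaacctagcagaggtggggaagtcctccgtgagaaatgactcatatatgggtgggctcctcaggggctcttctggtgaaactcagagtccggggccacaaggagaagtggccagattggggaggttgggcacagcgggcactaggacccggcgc
Slc12a5 downstream start, chr2:164967738-164967982: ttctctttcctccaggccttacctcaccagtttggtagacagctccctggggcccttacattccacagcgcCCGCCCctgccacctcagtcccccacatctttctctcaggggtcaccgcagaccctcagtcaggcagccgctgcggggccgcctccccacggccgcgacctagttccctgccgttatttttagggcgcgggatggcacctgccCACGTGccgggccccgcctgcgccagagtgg
The window of the upstream start held neither motif, and that of the downstream start held 1 of each. Both strands were searched, and across 32851 RefSeq promoter windows of 250 bases the GC box occurred in 32.7% and the E-box in 6.02%. An EGR site (GCGGGGGCG or GCGTGGGCG), present in 3.06% of windows, was found in 0 of the members' windows, and the TATA box (TATAAA; 12.4% of windows) only in that of Wnk3. The GC box occurred 4 times in the window of Wnk1, 4 times in that of Stk39 and 1 time in that of Oxsr1. Windows were given for 6 of the 7 members, and no window of Slc12a2 was used.

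Slc12a5 had by far the highest level per kilobase, with 104.2 ± 4.61 CPM per kilobase in males (SD, n = 18) and 104.9 ± 3.92 in females (SD, n = 20). Wnk2, a WNK kinase enriched in brain, was next with 22.4 ± 0.922 in males and 22.3 ± 0.941 in females. Stk39 followed at 14.7 ± 0.735 and 14.7 ± 0.798 CPM per kilobase. Oxsr1 (7.80 ± 0.457 in males, 6.71 ± 0.422 in females) and Wnk1 (7.65 ± 0.421 and 6.61 ± 0.286), the WNK kinase found in most tissues, differed by less than their spread. Slc12a2 had 4.32 ± 0.330 CPM per kilobase in males and 3.51 ± 0.289 in females, and Wnk3 had 3.64 ± 0.185 and 3.37 ± 0.247. The last pair differed by more than 1 SD in males and by less than 1 SD in females. With the length of the longest transcript in place of all exons, Wnk1 (15.4 in males, 13.3 in females) passed Oxsr1 (8.98 and 7.72), and the places of the other 5 genes were the same.

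Among relatives of the cotransporters, Slc12a9 had 5.12 CPM per kilobase in males and 4.37 in females, and Slc12a4 (KCC1) had 4.72 and 4.24. Slc12a7 (KCC4) stood at 0.359 and 0.334 CPM per kilobase. The kidney cotransporters Slc12a1 (NKCC2; 0.0550 CPM in males, 0.0230 in females) and Slc12a3 (NCC; 0.222 and 0.126 CPM) were near 0 and were not tested. Wnk4, the WNK kinase best known from kidney, had 0.560 and 0.594 CPM per kilobase, below each of the 3 WNK members. Slc4a10, a sodium-coupled bicarbonate transporter of neurons that also moves chloride, had 40.3 CPM per kilobase in males and 36.9 in females, between Slc12a5 and Wnk2.

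**Figure D1:**
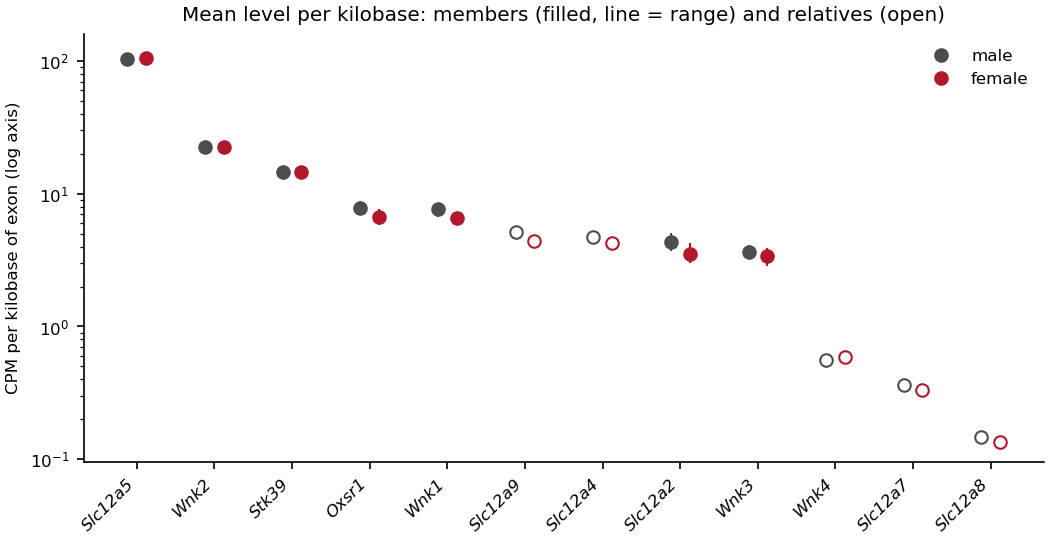
Mean level in CPM per kilobase of exon (log axis) over the 18 male and 20 female libraries, for the 7 members (filled points, with a line from the lowest to the highest library) and 5 relatives (open points, means only). Slc12a5 sits near 104 in both sexes and Wnk2 near 22, and Slc12a2 and Wnk3 are the lowest members, above Wnk4, Slc12a7 and Slc12a8.

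Slc12a5, the transporter that exports chloride, lay in a narrow range in every group. In male controls without stress it was 792, 808, 758, 741 and 757 CPM, and in male controls after CVS it was 741 at the lowest, 772 at the median and 824 at the highest CPM. Male mutants had 764, 752 and 806 CPM without stress and 796, 799.7, 825 and 710.4 CPM after CVS. Each of the 4 male groups overlapped the others, and the widest was mutant CVS. Female controls had 729.7, 804, 764, 853 and 809.7 CPM without stress and 807, 789, 818, 781 and 796 CPM after CVS. Female mutants had 770.5, 766, 759, 782 and 748 CPM without stress and 762, 758, 798, 777 and 746 CPM after CVS, inside the range of the unstressed female controls. Over the 8 comparisons of stress or genotype within a sex, its log2 fold change lay between -0.055 and 0.017, and the 95% confidence intervals reached from -0.12 to 0.12 at the outermost. Averaged over sexes and genotypes, its stress effect was 0.012 ± 0.0200 (log2 fold change ± SE; 95% confidence interval -0.028 to 0.052). That interval spans a change of -1.95% to 3.67%. The averaged genotype effect was -0.021 ± 0.0200 (-0.062 to 0.019).

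Slc12a2 was lower after CVS in female controls, without passing the test over all genes. Without stress these females had 40.6, 37.5, 41.2, 37.5 and 40.9 CPM, and after CVS they had 33.3, 33.4, 33.2, 36.1 and 39.4 CPM. Of the 5 stressed controls 4 lay below every unstressed control, and 1 lay among them. The log2 fold change was -0.17 ± 0.0589, a difference of -11.2% (95% confidence interval -18.3% to -3.53%), with an unadjusted p of 0.00621 and an adjusted p of 0.396 (edgeR quasi-likelihood test, Benjamini-Hochberg). With 1 library left out at a time the value ran from -0.22 to -0.15. Female mutants had 43.03, 38.3, 45.6, 40.1 and 36.9 CPM without stress and 36.9, 37.5, 39.4, 37.2 and 38.98 CPM after CVS, and these groups overlapped (-0.10 ± 0.0587, unadjusted p = 0.0888). The interaction of genotype and stress on Slc12a2 in females did not reach an unadjusted p of 0.05. For stress in female controls no marker of other cells passed an adjusted p of 0.05, but most had negative values, whereas 50% of all genes lay above 0. Of 12 oligodendrocyte markers 10 had a negative value, 3 of them at an unadjusted p under 0.05, which 8.72% of all genes reached. Their summed level was 1184 to 1437 CPM in unstressed and 1110 to 1277 CPM in stressed female controls. Of 8 endothelial and pericyte markers 6 had a negative value, 1 at an unadjusted p under 0.05, with sums of 187 to 242 CPM without stress and 152 to 225 CPM after it. Of 8 astrocyte markers 7 had a negative value, 2 at an unadjusted p under 0.05, with sums of 5186 to 5802 CPM and 4728 to 5656 CPM. All 6 oligodendrocyte precursor markers had a negative value, with Gpr17 at -0.18 (unadjusted p = 0.0166). Their sums were 208 to 226 CPM without stress and 183 to 221 CPM after it. The part of these cells in the difference was not tested. Choroid plexus markers summed to 3.94 to 5.79 CPM in the unstressed and 3.10 to 6.17 CPM in the stressed female controls. Of these 7 markers, Kl (2.73 CPM) and Kcnj13 (0.977 CPM) had the highest means in females, and Folr1 and Otx2 averaged 0.0551 and 0.0189 CPM. Only Kl and Kcnj13 passed the low-count filter in females. With stress in controls, Kl stood at 0.17 (unadjusted p = 0.382) and Kcnj13 at -0.998 (unadjusted p = 0.0207, edgeR adjusted p = 0.491). The part of the choroid plexus was not tested either.

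In males the 4 groups overlapped in Slc12a2. Unstressed male controls had 50.6, 42.9, 47.3, 46.5 and 50.1 CPM, and stressed male controls had 45.8 at the lowest, 47.02 at the median and 54.01 at the highest CPM. Male mutants had 50.8, 44.2 and 43.3 CPM without stress and 48.2, 41.1, 42.5 and 48.4 CPM after CVS. The effect of stress on Slc12a2 in females was below that in males by -0.14 ± 0.0643 (female minus male, averaged over genotypes), with an unadjusted p of 0.0321 and an adjusted p of 0.671 by edgeR. Without male mutant CVS replicate 1 this difference was -0.13, with an unadjusted p of 0.0618, and without the 3 libraries high in Cdhr1 it was -0.074 (unadjusted p = 0.328). The effect of genotype differed between the sexes the other way, by 0.15 ± 0.0643 (unadjusted p = 0.0206, edgeR adjusted p = 0.547). Without male mutant CVS replicate 1 that value was 0.17 (unadjusted p = 0.0126), and without the 3 libraries it was 0.088 (unadjusted p = 0.248). Averaged over sexes and genotypes, the stress effect on Slc12a2 was -0.066 ± 0.0321 (95% confidence interval -0.13 to -0.0016; unadjusted p = 0.0449, edgeR adjusted p = 0.522). It was -0.074 without male mutant CVS replicate 1 (unadjusted p = 0.0282) and -0.10 without the 3 libraries (unadjusted p = 0.00878, edgeR adjusted p = 0.290). The averaged genotype effect was 0.00046 ± 0.0321, and without male mutant CVS replicate 1 it was -0.0077.

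The ratio of Slc12a5 to Slc12a2 counts within a library needs no scaling between libraries, and is often read as a sign of chloride export against import. It is not read so here, because other cells than neurons also make NKCC1 and RNA counts do not measure protein. In unstressed female controls it was 17.96, 21.5, 18.6, 22.8 and 19.8, and in stressed female controls 24.2, 23.6, 24.6, 21.6 and 20.2. Female mutants had ratios of 17.9, 19.98, 16.7, 19.5 and 20.3 without stress and 20.7, 20.2, 20.3, 20.9 and 19.1 after CVS. The highest ratios among females, 24.6, 24.2 and 23.6, were in stressed controls, but that group overlapped the unstressed one. Male controls had 15.7, 18.8, 16.03, 15.96 and 15.1 without stress and 14.02 at the lowest, 16.1 at the median and 17.98 at the highest after CVS. Male mutants had 15.02, 16.99 and 18.6 without stress and 16.5, 19.4, 19.4 and 14.7 after CVS, and all 4 male groups overlapped. As mean log2 ratios, female controls stood at 4.32 ± 0.142 without stress and 4.51 ± 0.122 after CVS (SD, n = 5 each), and female mutants at 4.23 ± 0.120 and 4.34 ± 0.0489. The male means lay between 3.99 and 4.12, with SDs from 0.123 to 0.197. These ratios follow from the levels already given, so they carry no test of their own.

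**Figure D2:**
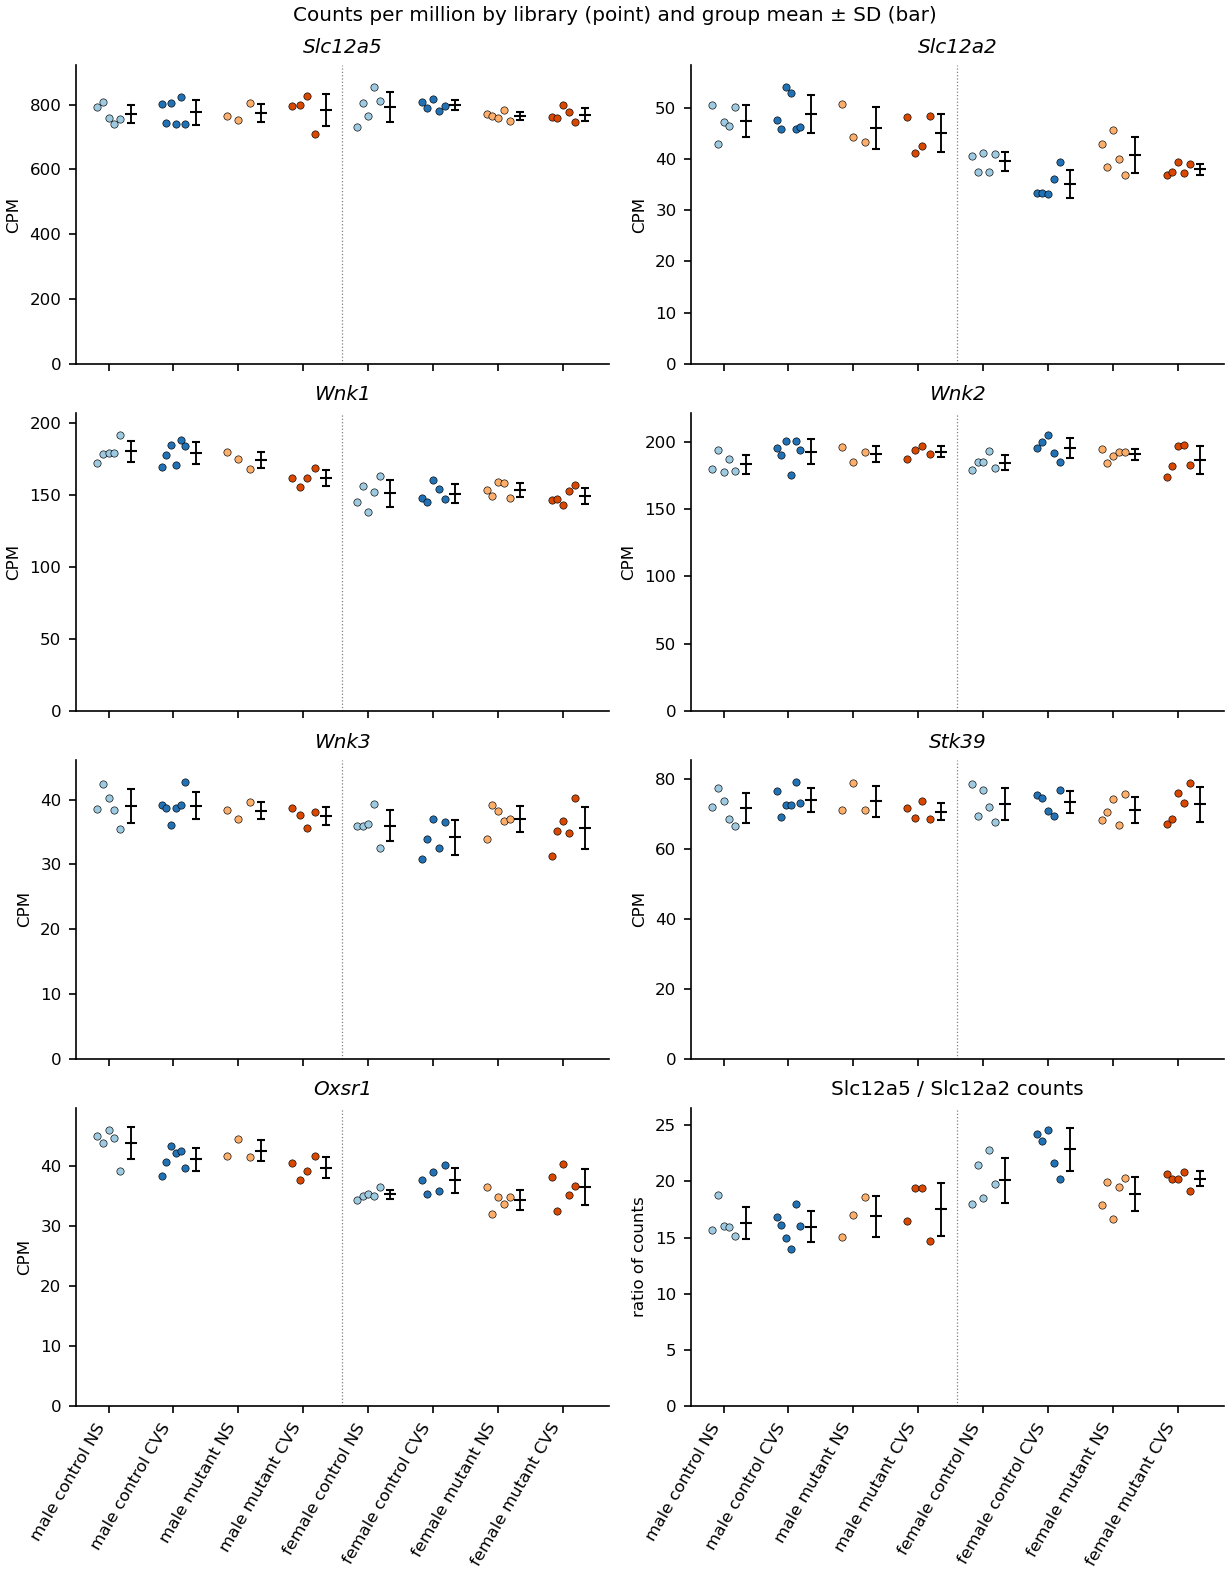
CPM of each of the 7 genes, and in the last panel the ratio of Slc12a5 to Slc12a2 counts, by sex, genotype and stress, with 1 point per library and a bar for the group mean ± SD. In the comparisons of stress or genotype within a sex the groups overlap for each gene except Wnk1 in stressed males, where mutants (155.3 to 168.5 CPM) lie below controls (169.3 to 187.7 CPM).

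Of the WNK kinases, Wnk1 showed the smallest p of any member. Stressed male controls had 169.3 at the lowest, 180.5 at the median and 187.7 at the highest CPM, and stressed male mutants had 161.4, 155.3, 161.7 and 168.5 CPM. The highest mutant lay just under the lowest control, so the groups did not overlap. The log2 fold change was -0.15 ± 0.0413, a difference of -9.61% (95% confidence interval -14.8% to -4.15%). Its unadjusted p was 0.00144 and its adjusted p 0.348 by edgeR, so it did not pass the test over all genes. Wnk1 was the 1 member of 7 whose groups did not overlap in that comparison. Among all genes tested there, 0.726% were lower and 0.749% higher with no overlap. It was also the only such member when every comparison of stress or genotype within a sex was checked in both directions. Per direction, the share of all genes without overlap ran from 0.395% (male stress in controls, lower) to 1.94% (male genotype without stress, lower). Without male mutant CVS replicate 1 the value was -0.14 (unadjusted p = 0.00521), and without the 3 libraries high in Cdhr1 it was -0.16 (unadjusted p = 0.000789).

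In the same comparison of stressed males, no oligodendrocyte or astrocyte marker passed an adjusted p of 0.05. All 12 oligodendrocyte markers had a negative value (mutant against control), while 49% of all genes lay above 0, and 2 of the 12 had an unadjusted p under 0.05, against 7.62% of all genes. Their sums overlapped and ranged from 1340 to 1940 CPM in controls and from 1100.3 to 1862 CPM in mutants. Of the 8 astrocyte markers 7 had a negative value, 2 at an unadjusted p under 0.05, with sums of 4932 to 5449 CPM in controls and 4737 to 5094 CPM in mutants. Whether these cells bear on the level of Wnk1 was not tested.

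In the other male groups Wnk1 read 172, 179, 179, 179 and 192 CPM in unstressed controls and 179.5, 174 and 168 CPM in unstressed mutants, which overlapped. Within male mutants it was lower after CVS by -0.11 ± 0.0487 (unadjusted p = 0.0389, edgeR adjusted p = 0.9997), and the lowest unstressed value (168.04 CPM) lay just below the highest stressed one. Without male mutant CVS replicate 1 that value was -0.10, with an unadjusted p of 0.0622. Of the 3 unstressed male mutants 2 are libraries high in Cdhr1, and without the 3 such libraries, which leaves 1 unstressed mutant, it was -0.15 (unadjusted p = 0.0451, edgeR adjusted p = 0.954). The interaction of genotype and stress in males was -0.097 ± 0.0621 and passed no threshold (unadjusted p = 0.129). In females the groups overlapped: controls had 145, 156, 138, 152 and 163 CPM without stress and 148, 145, 160.5, 154 and 147 CPM after CVS. Female mutants had 153, 149, 159, 158 and 148 CPM and 146, 147, 143, 153 and 156 CPM. The genotype effect on Wnk1 differed between the sexes by 0.097 ± 0.0426 (female minus male; unadjusted p = 0.0279, edgeR adjusted p = 0.579). It was 0.095 without male mutant CVS replicate 1 (unadjusted p = 0.0357) and 0.083 without the 3 libraries high in Cdhr1 (unadjusted p = 0.107). Averaged over all groups, the genotype effect on Wnk1 was -0.047 ± 0.0213 (95% confidence interval -0.090 to -0.0040; unadjusted p = 0.0326, edgeR adjusted p = 0.384), and the stress effect was -0.038 ± 0.0213. The averaged genotype effect was -0.046 without male mutant CVS replicate 1 (unadjusted p = 0.0414) and -0.039 without the 3 libraries (unadjusted p = 0.123).

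Wnk2 had a slightly higher mean after CVS in controls of both sexes, and passed no test over all genes. Female controls had 179, 185, 185, 193 and 180.3 CPM without stress and 196, 199.5, 205, 191 and 185 CPM after CVS, a log2 fold change of 0.082 ± 0.0385 (unadjusted p = 0.0409, edgeR adjusted p = 0.548). Female mutants had 195, 184, 189.7, 192 and 192 CPM without stress and 174, 182, 197, 198 and 183 CPM after CVS, a change of -0.031 ± 0.0386. The difference between those effects was -0.11 ± 0.0545 (unadjusted p = 0.0457, edgeR adjusted p = 0.99994). Male controls had 180.0, 194, 177, 187 and 179 CPM without stress and 176 at the lowest, 195 at the median and 201 at the highest CPM after CVS (0.071 ± 0.0384), and male mutants had 196, 185 and 192 CPM and 187, 194, 197 and 191 CPM (0.011 ± 0.0485). Averaged over the sexes, the interaction was -0.089 ± 0.0407 (unadjusted p = 0.0343, edgeR adjusted p = 0.931), and without male mutant CVS replicate 1 it was -0.082 (unadjusted p = 0.0569). Without the 3 libraries high in Cdhr1 it was -0.11 (unadjusted p = 0.0374). Groups overlapped in each of these comparisons. Averaged over all groups, the effects on Wnk2 were 0.034 ± 0.0204 for stress and 0.010 ± 0.0204 for genotype.

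Wnk3, which is linked to the X chromosome, had values from 35.5 to 42.7 CPM over the male libraries and from 30.8 to 40.3 CPM over the female libraries. Its group means ran from 37.5 ± 1.33 (male mutant CVS, n = 4) to 39.1 ± 2.11 (male control CVS, n = 6) in males and from 34.2 ± 2.66 (control CVS) to 37.0 ± 2.003 (mutant NS) in females (SD, n = 5). The averaged effect was -0.039 ± 0.0311 for stress and 0.0041 ± 0.0311 for genotype. In the annotation, exons of Wnk3 share bases with the antisense gene A230072E10Rik, and the strand setting of the counting is not stated in the sources used here. Its counts may therefore hold reads of both. The exons of the other 6 members share bases with 0 annotated genes.

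The group means of Stk39, which encodes SPAK, lay between 70.8 ± 2.39 (male mutant CVS, n = 4) and 74.0 ± 3.47 (male control CVS, n = 6) in males, and between 71.3 ± 3.79 (mutant NS) and 73.5 ± 3.14 (control CVS) in females (SD, n = 5). The averaged stress effect was 0.0082 ± 0.0262, and that of genotype was -0.017 ± 0.0262.

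For Oxsr1, which encodes OSR1, the differences with stress had opposite signs in the sexes and passed no test over all genes. Sex and cohort cannot be told apart here either. Male controls had 44.9, 43.7, 46.02, 44.7 and 39.2 CPM without stress and 38.3 at the lowest, 41.4 at the median and 43.3 at the highest CPM after CVS, and male mutants had 41.6, 44.5 and 41.4 CPM and 40.4, 37.7, 39.1 and 41.7 CPM. Female controls had 34.4, 34.96, 35.3, 34.99 and 36.5 CPM without stress and 37.6, 35.3, 39.00, 35.7 and 40.1 CPM after CVS, and female mutants had 36.4, 31.9, 34.9, 33.6 and 34.8 CPM and 38.1, 32.4, 40.3, 35.1 and 36.6 CPM. Stressed groups had the lower mean in males and the higher mean in females, and each pair of groups overlapped. The log2 fold changes with stress were -0.091 ± 0.0501 in male controls and -0.098 ± 0.0637 in male mutants, against 0.090 ± 0.0564 in female controls and 0.087 ± 0.0567 in female mutants. None of these 4 reached an unadjusted p of 0.05. The difference between the sexes was 0.18 ± 0.0559 (female minus male, averaged over genotypes; 95% confidence interval 0.068 to 0.29), with an unadjusted p of 0.00224 and an adjusted p of 0.596 by edgeR. It lay between 0.16 and 0.20 when 1 library at a time was left out, with 0.18 (unadjusted p = 0.00261) without male mutant CVS replicate 1. Without the 3 libraries high in Cdhr1 it was 0.16 (unadjusted p = 0.0224). Averaged over the sexes, the effects on Oxsr1 were -0.0017 ± 0.0280 for stress and -0.042 ± 0.0280 for genotype.

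**Figure D3:**
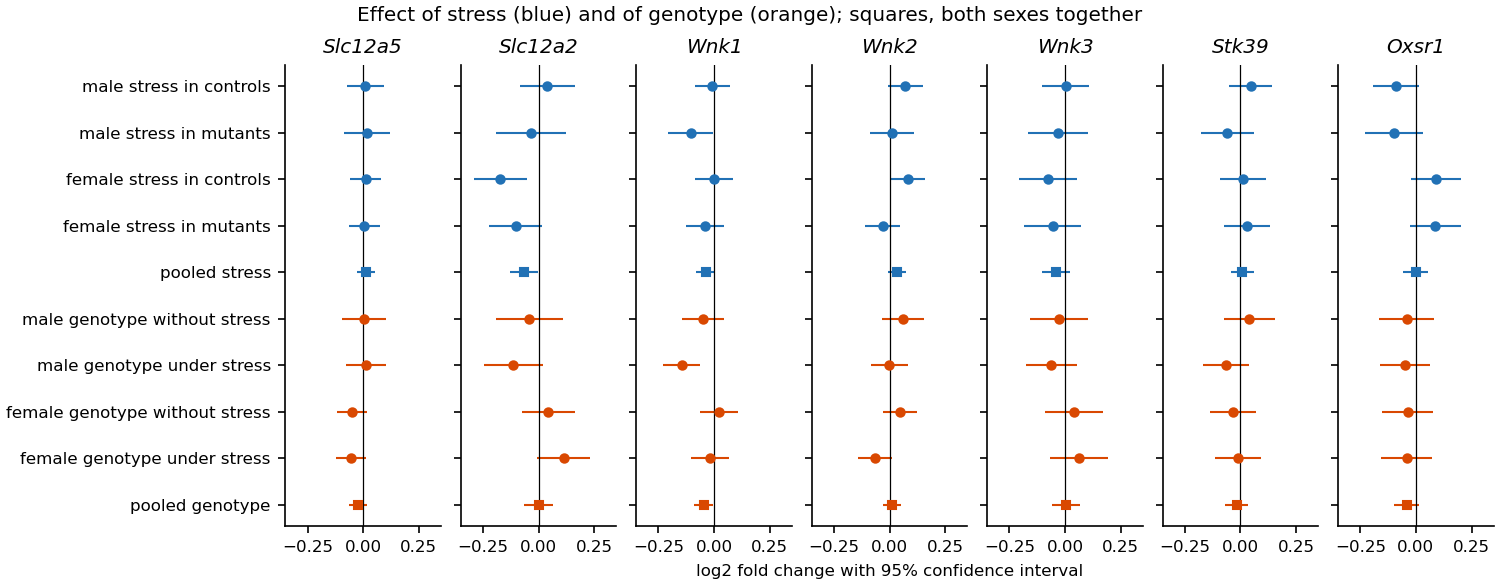
Log2 fold change (point) with its 95% confidence interval (line) of each gene for stress (blue) and genotype (orange), within a sex (circles) and averaged over both sexes (squares, labelled pooled). The intervals of Slc12a5 stay within -0.12 to 0.12 in the within-sex comparisons, and the lowest point of all is Slc12a2 for stress in female controls (-0.17).

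In all, 0 of the 7 members passed an adjusted p of 0.05 (edgeR) in any of 15 comparisons, which gave 105 values with a smallest adjusted p of 0.348. Few genes of any kind passed. In males, 0.0116% of all tested genes passed for stress in controls, 0% for stress in mutants, 0.0174% for genotype without stress, 0.0523% for genotype under stress and 0% for the interaction. In females, 0% passed for stress in controls, 0% for stress in mutants, 0.128% for genotype without stress, 0.0243% for genotype under stress and 0% for the interaction. Over both sexes, 0.017% passed for stress, 1.09% for genotype, 0% for the interaction, 0% for the sex difference of stress and 0.00566% for that of genotype.

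At an unadjusted p under 0.05, 12 of the 105 values passed, again beside their background. These were 2 of 7 members for stress in female controls (8.72% of all genes), 1 of 7 for stress in male mutants (3.38%), 1 of 7 for genotype in stressed males (7.62%) and 1 of 7 for the female interaction (4%). Over both sexes they were 1 of 7 for stress (9.37%), 1 of 7 for genotype (11.2%), 1 of 7 for the interaction (4.96%), 2 of 7 for the sex difference of stress (7.18%) and 2 of 7 for that of genotype (8.01%). In the other 6 comparisons 0 of 7 passed. There the background was 7.39% (male stress in controls), 6.13% (male genotype without stress), 4.18% (male interaction), 7.91% (female stress in mutants), 8.07% (female genotype without stress) and 7.08% (female genotype under stress). Over the members, the median log2 fold change was -0.0017 for the averaged stress effect and -0.017 for that of genotype, against 0.0028 and -9.43e-05 over all 17671 genes. The comparisons within a sex share libraries of controls or of mutants, and those over both sexes use the same libraries again. Their values are therefore not independent of each other.

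Regulators of the kinases did not pass either. Of 11 such genes 0 passed an adjusted p of 0.05 in any comparison. Cab39 (MO25), a scaffold that raises the activity of SPAK and OSR1, had 201.8 ± 10.3 CPM in males and 196.3 ± 10.9 in females. Cul3 and Klhl3, parts of the ubiquitin ligase that degrades WNK kinases, had 138.2 ± 4.63 and 81.5 ± 3.86 CPM in males and 126.5 ± 8.39 and 86.7 ± 5.30 in females. The genes with the smallest p values in the averaged effects of stress and genotype were Ppp1cb, Cab39 and Cul3. Ppp1cb, a catalytic subunit of protein phosphatase 1, stood at -0.050 ± 0.0185 with stress (unadjusted p = 0.00925, edgeR adjusted p = 0.398) and at 0.047 ± 0.0185 with genotype (unadjusted p = 0.0133, edgeR adjusted p = 0.266). With stress Cab39 stood at -0.053 ± 0.0241 (adjusted p = 0.495) and Cul3 at -0.047 ± 0.0221 (adjusted p = 0.511).

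Of the 4 other Slc12 transporters described and tested, 0 passed in any comparison. The smallest p of all comparisons was that of Slc12a4 for the interaction averaged over sexes (0.18 ± 0.0792, unadjusted p = 0.0282, edgeR adjusted p = 0.931). Among the averaged effects of stress and of genotype, the genes with the smallest p values were Slc12a4 with genotype (-0.071 ± 0.0396), Slc12a8 with stress (-0.31 ± 0.197) and Slc12a9 with stress (0.063 ± 0.0432). Of 13 other genes of chloride and bicarbonate transport 0 passed. The chloride channel gene Clcn2 stood at 0.077 ± 0.0307 with stress (edgeR adjusted p = 0.430), the carbonic anhydrase gene Car2 at -0.069 ± 0.0296 (adjusted p = 0.469), and the anion exchanger gene Slc4a2 at -0.086 ± 0.0384 with genotype (adjusted p = 0.372).

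Among 12 partners of KCC2 and regulators of its transcription, 1 passed in 1 comparison. That was genotype over both sexes, where 1.09% of all genes passed (0.753% lower and 0.34% higher in mutants). Atp1b2, the β2 subunit of the sodium-potassium pump, which astrocytes express strongly, was lower in mutants over both sexes by -0.078 ± 0.0210 (edgeR adjusted p = 0.0493). Male controls had 414.8 to 447 CPM and male mutants 365 to 411 CPM, and female controls had 302 to 359.5 CPM and female mutants 295 to 339.6 CPM. The call was lost in 25 of 38 runs that left out 1 library and in 3 of 6 other settings. These were RLE size factors (-0.077, adjusted p = 0.0518), no low-count filter (-0.077, adjusted p = 0.0582) and the fit without the 3 libraries high in Cdhr1 (-0.062, adjusted p = 0.340). All 8 astrocyte markers had a negative value in that comparison, where 49.9% of all genes lay above 0, and S100b (-0.14 ± 0.0275, adjusted p = 0.00166) and Slc1a2 (-0.096 ± 0.0244, adjusted p = 0.0354) passed the test of edgeR. Their part in the level of Atp1b2 was not tested. The call of Slc1a2, a glutamate transporter gene of astrocytes, was lost in 15 of the 38 runs and in 2 of the 6 settings, without the low-count filter (-0.095, adjusted p = 0.0981) and without the 3 libraries (-0.063, adjusted p = 0.377). Sst, the transcript that defines the cells in which the Cre acts, was higher in mutants (0.19 ± 0.0336, adjusted p = 0.00143), and kept its call in all 38 runs and all 6 settings, as S100b did. Of the 6 somatostatin neuron markers it was the 1 that passed, and 2 had a positive and 4 a negative value. Nos1 stood at 0.15 ± 0.0474 (edgeR adjusted p = 0.138) and Npy at -0.13 ± 0.0366 (adjusted p = 0.0727), while Chodl, Crhbp and Elfn1 had negative values with adjusted p values from 0.575 to 0.986.

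Because oligodendrocytes also make NKCC1, the levels of both cotransporters were set against the mean log2 CPM of 12 oligodendrocyte markers across libraries of 1 sex. In males, libraries with higher markers had more Slc12a2 (Pearson r = 0.559, permutation p = 0.0159, adjusted p = 0.0428 over 4 relations; Spearman rho = 0.434, permutation p = 0.0729; n = 18). They had less Slc12a5 (r = -0.538, permutation p = 0.0214, adjusted p = 0.0428, and rho = -0.492, permutation p = 0.0393). The adjusted permutation p of rho was 0.0996 for both genes, so neither relation passed the threshold on ranks. The 3 lowest marker levels in males were in mutants, and without the 2 libraries farthest from the median of the markers r was 0.388 for Slc12a2 and -0.370 for Slc12a5, so both relations rest in part on those libraries. Within groups, after removal of group means, r was 0.480 (adjusted p = 0.0798) and -0.566 (adjusted p = 0.0592), so neither relation passed the threshold there. Without the 3 libraries high in Cdhr1, r across male libraries was 0.590 for Slc12a2 and -0.465 for Slc12a5 (n = 15). With the 2 farthest of those 15 left out as well, r was 0.171 and -0.172. In females r was 0.337 for Slc12a2 (permutation p = 0.146; rho = 0.408, permutation p = 0.0747) and -0.0047 for Slc12a5 (permutation p = 0.985; rho = -0.029, permutation p = 0.907; n = 20). Without the 2 farthest libraries the female values were 0.283 and 0.075. After removal of group means the female r was 0.427 for Slc12a2 (permutation p = 0.0598, adjusted p = 0.0798; rho = 0.499, permutation p = 0.0264, adjusted p = 0.0782) and -0.230 for Slc12a5 (permutation p = 0.327; rho = -0.271, permutation p = 0.245). All CPM of a library share its scaled total, so a larger share of 1 cell type can lower the CPM of genes of other cells. Whether that bears on these relations was not tested.

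**Figure D4:**
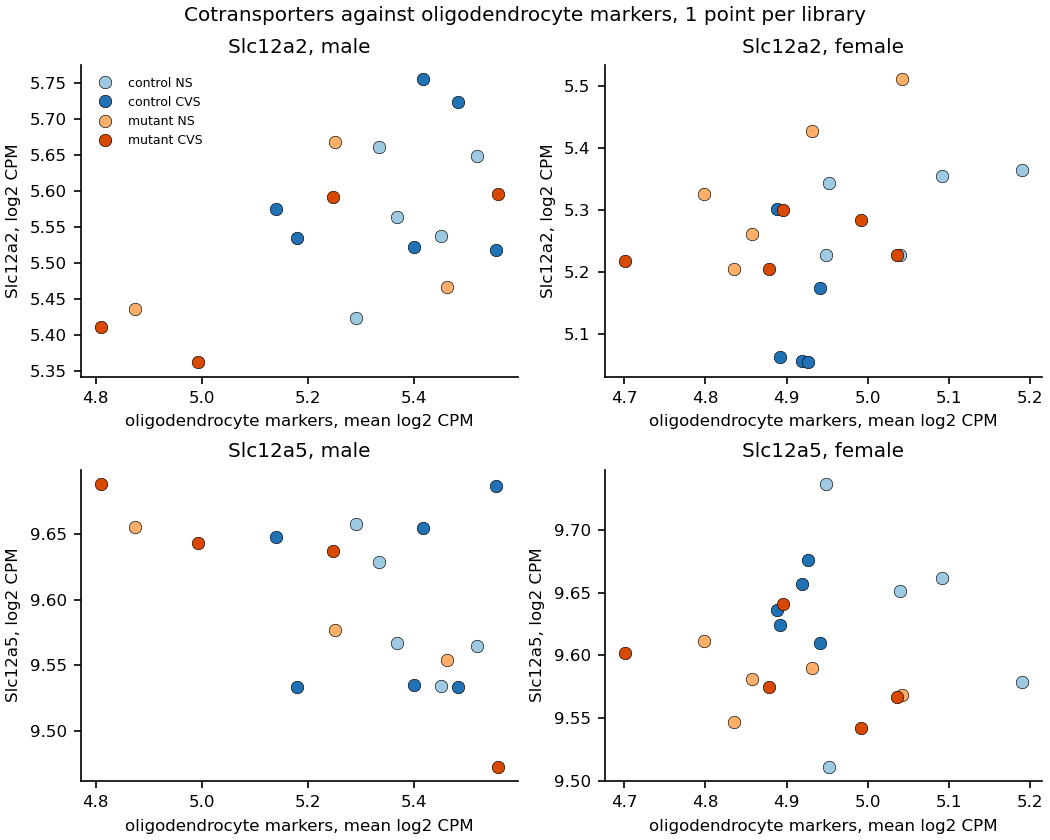
Log2 CPM of Slc12a2 and Slc12a5 against the mean log2 CPM of 12 oligodendrocyte markers, 1 point per library, males and females apart, with the groups coloured. In males Slc12a2 goes up with the markers (r = 0.559) and Slc12a5 goes down (r = -0.538), and in females r is 0.337 and -0.0047.

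The members were also set against each other across libraries of 1 sex, with group means removed. None of the 42 relations passed an adjusted p of 0.05 (smallest adjusted permutation p 0.474), 4 had an unadjusted p under 0.05, and r ran from -0.438 to 0.531. Slc12a5 and Wnk2 went together with like strength in both sexes, with r = 0.529 in males (permutation p = 0.0246, rho = 0.628, 0.554 without the 2 farthest libraries) and r = 0.531 in females (permutation p = 0.0113, rho = 0.484, 0.441 without them). Slc12a5 and Stk39 had opposite signs, with r = 0.490 in males (permutation p = 0.0391) and -0.416 in females (permutation p = 0.128). Wnk3 and Stk39 had r = 0.498 in females (permutation p = 0.0478) and 0.292 in males (permutation p = 0.322).

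Among 16332 genes, likeness of pattern was ranked by the lower of the r in males and the r in females, on values with group means removed. For Slc12a5 the nearest were Sez6l2 (r = 0.781 in males, 0.782 in females), Dock4 (0.742 and 0.703) and Rasgrf2 (0.711 and 0.696). For Slc12a2 they were Zfp472 (0.665 and 0.658), Rbms1 (0.600 and 0.584) and Fbxo32 (0.603 and 0.545). Wnk1 was nearest to Ick (0.670 and 0.748), Tacc1 (0.670 and 0.667) and Cobll1 (0.647 and 0.707). Wnk2 was nearest to Iqsec1 (0.681 and 0.720), Nfix (0.812 and 0.658) and Adgrb2 (0.658 and 0.666). For Wnk3 the nearest were Frmpd4 (0.652 and 0.630), Cbx5 (0.672 and 0.608) and Dcun1d1 (0.606 and 0.801), and for Stk39 they were Rab35 (0.670 and 0.718), Clcn4 (0.636 and 0.627) and Tmf1 (0.647 and 0.618). Oxsr1 had the lowest values, with Mad2l1bp (0.589 and 0.578), Ermp1 (0.561 and 0.544) and Tgfb2 (0.540 and 0.600). These are descriptions over 18 male and 20 female libraries that share depth and tissue makeup, and no member is among the genes named for another.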

How the data were processed

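The authors deposited raw counts per gene for 38 libraries. Per the submitters' processing notes, fastp 0.23.2, STAR 2.7.10b, featureCounts and the build GRCm39 were used; no annotation release or strand setting is stated in the sources used here. From these counts edgeR 4.0.16 (R 4.3.3; TMM, filterByExpr with a minimum count of 10, robust quasi-likelihood) was fitted per sex with 4 groups (17212 genes in males, 16435 in females) and over all 8 groups (17671 genes) for effects averaged over sexes and their sex differences. P values were adjusted over all tested genes (Benjamini-Hochberg, 0.05). An SE is the log2 fold change divided by the root of F. Symbols and exon lengths came from a GRCm38 annotation. Permutation tests drew 1e+05 resamples. DESeq2 1.42.0, limma 3.58.1 and sva 3.50.0 gave alternatives. Scripts were tested on simulated data. The members, the 4 lists of related genes, the 8 lists of cell markers, the tests and the naming rule (members with an unadjusted p under 0.05 or in an averaged comparison; list genes past the threshold, otherwise up to 3 by p) were chosen with earlier results of these data known.

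Some genes are not reported here.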

Additional observations from a re-analysis of the deposited data

Results flagged for a closer look

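The log2 ratio of Slc12a5 to Slc12a2 in male control NS replicate 2 was 4.23, apart from the other 4 libraries of its group, which lay closer together. It was the only sample flagged among 56 sets of 4 to 6 libraries checked, and chance alone flags about 1 in 20.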

How the results depend on the processing

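No member passed an adjusted p of 0.05 in 95 comparisons under other settings (DESeq2, limma voom, RLE size factors, no low-count filter, 1 surrogate variable, all groups in 1 fit, without the 3 libraries high in Cdhr1) or in 380 that left out 1 library; the smallest adjusted p was 0.148 (DESeq2, Wnk1 in stressed males) and 0.180 (without 1 library). Over all genes the settings mattered more: for stress in female controls 0 genes passed with edgeR, 28 with DESeq2 and 51 without the filter; for genotype in stressed males 9, 27 and 43; for averaged stress 3, 35 and 6; and for averaged genotype 193, 299 and 192. Values near 0 changed sign, and the cause was not tested. Averaged stress on Oxsr1 was 0.0088 without the 3 libraries and -0.011 to 0.0083 over single libraries left out. Averaged genotype on Slc12a2 was -0.0012 with limma voom, -0.0056 with 1 surrogate variable and -0.019 to 0.012 over single libraries; that on Wnk3 was -0.0075 to 0.015. Of the male relations with oligodendrocyte markers, Slc12a2 (r = 0.480, adjusted permutation p = 0.0798) and Slc12a5 (-0.566, 0.0592) missed the threshold after removal of group means, and Slc12a5 also without the 3 libraries (-0.465, 0.0813). The alternatives for gene length and for the genes of other lists were added after the data were examined. No paired analysis was made, because each library came from a different mouse in 1 group and the labels name no pairs of mice. With 3 to 6 libraries a group, the median SE over all genes was 0.0875 to 0.112 for effects within a sex, which limits the size of change that could be seen. Labels name single mice but not litters or days, so p values measure the spread between mice.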
